A study of Mus musculus with 16 samples.

Results

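The binding sites of myogenin (MyoG) in early mouse myotubes were described here from the peak list deposited for the MyoG chromatin immunoprecipitation and sequencing (ChIP-seq) experiment. All 61491 peaks on chromosomes 1 to 19 were taken, of 62456 MyoG peaks in the list and 193322 peaks in the 4 lists of the series. MyoG was precipitated with a mouse antibody from primary C57BL/6 muscle cells that had spent 4 days in culture, the last 24 hours of them in a medium with 4% horse serum and insulin that drives differentiation, and mouse IgG served as the control, with 2 libraries a side. The cells were grown from satellite cells, the stem cells of muscle, of the gastrocnemius of mice aged 2 to 3 weeks. The lists set beside it came from the same kind of cells while they still proliferated, after 3 days in culture: RUNX1 (an antibody made by the study's laboratory) against non-immune rabbit serum, MyoD (mouse antibody) against mouse IgG and c-Jun (rabbit antibody) against rabbit IgG, again with 2 libraries a side and 16 samples in 8 groups in all. The labels call the MyoG cells myotubes, and no expression value or marker was at hand to check that name. Whether cells of several animals were pooled is not stated. The list taken as MyoG bears an abbreviation and was assigned because the other 3 names match the other factors.

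MyoG and MyoD are basic helix-loop-helix factors. Each binds as a dimer with an E protein to a short motif called the E-box, and the motif is shared between them. MyoD is present in proliferating myoblasts and commits cells to muscle, whereas MyoG appears as they leave the cell cycle and is required for their terminal differentiation into fibres. RUNX1 binds DNA with its Runt domain and the AP-1 factor, which c-Jun forms with other proteins, is active in dividing cells. The question of the comparison was which part of the MyoG sites of differentiating cells had been bound by MyoD, RUNX1 or c-Jun before differentiation began. Stage and factor differ together between the lists and cannot be told apart.

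The list gives 1 score per peak and no value for any of the 2 MyoG or 2 IgG libraries alone. Variation between cultures therefore could not be measured, and no test between samples was possible. Read depth is not given, so no counting error of a peak is known, and a missing peak does not show that a factor was absent. Errors below are standard deviations (SD) over the 19 chromosomes, which describe variation along the genome and are not replicates. The 95% Wilson intervals on shares cover counting error only and treat peaks as independent, which neighbouring peaks are not. No p-value is given. All coordinates are on the mouse build mm9, and 0 MyoG peaks lay beyond an mm9 chromosome end, against 550 beyond an end of mm10. Gene names, promoters, motifs and sequences were not analysed here.

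Most MyoG peaks had a low score, and a small group sat at a fixed upper value. The score is a number the authors' peak caller wrote for each peak, and it ranks peaks within this list. It ran from 50.01 to 3233, with a median of 190.3, a lower quartile of 90.2 and an upper quartile of 521. Of the peaks, 17802 (29.0%) scored under 100 and 7694 over 1000. Exactly 674 peaks carried the value 3100, here called the score ceiling, and 98 lay above it, while the next value below was 3097. The order of peaks at and above the ceiling is not known. The median was close to those of MyoD (176.9), RUNX1 (177.9) and c-Jun (172.5), although scores of separate lists are not on a shared scale.

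MyoG peaks were narrow. Their median width was 641 bp, with quartiles of 555 and 759 bp, and the widest spanned 4481 bp. Only 175 MyoG peaks exceeded 2000 bp, against 219 of MyoD, 1446 of c-Jun and 2373 of RUNX1, whose median widths were 818, 1124 and 945 bp. Together the MyoG peaks covered 42.8 Mb.

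Width followed score. When the list was divided into 10 classes of nearly equal number by score, from class 1 (50.01 to 61.8) to class 10 (1172 to 3233), the median width went from 507 to 925 bp. The ratio of the strongest to the weakest class was 1.82 ± 0.045 (SD over 19 chromosomes), with a range over chromosomes from 1.75 to 1.91. Across peaks, the Spearman correlation of score and width was 0.72. A wider peak meets another list more easily, so the shares below are also given, where a statement turns on them, for centres within 150 bp, a rule that does not grow with width.

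**Figure D1:**
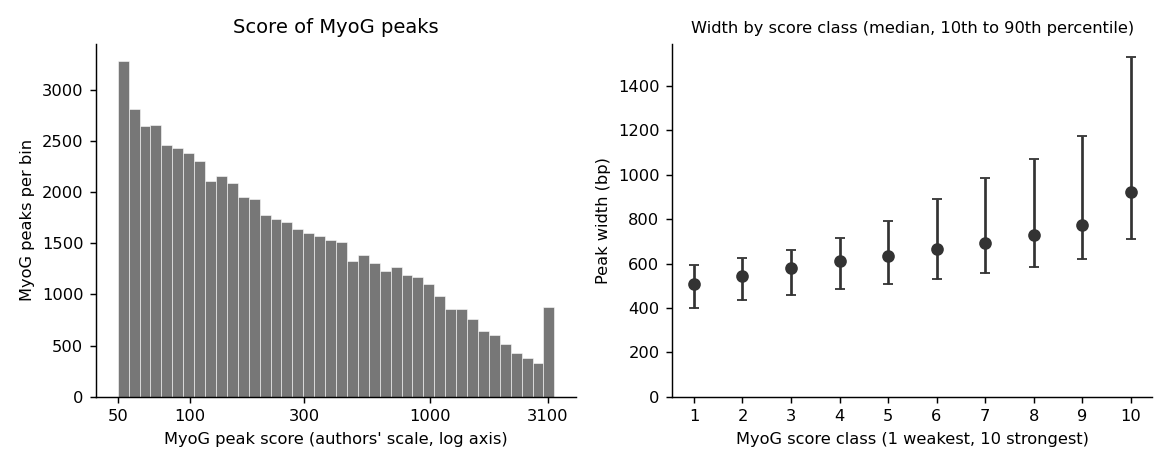
Left, the number of MyoG peaks by score on a log axis, and right, the median width in bp in each of 10 score classes, with bars from the 10th to the 90th percentile of the peaks. Peak number falls with score until the pile of 772 peaks at or above 3100, and the median width climbs from 507 bp to 925 bp.

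The 5 widest peaks at or above the ceiling were chosen by a fixed rule as examples. They are the widest of these peaks, not the strongest, and width makes an overlap easier. The widest, with 4481 bp and a score of 3100, lay at chr1:136089135-136093615. It met MyoD at the ceiling, RUNX1 with a score of 1226 and c-Jun with a score of 1297. The next lay at chr8:97513185-97516809, with MyoD (1202) and RUNX1 (501) but no c-Jun. The other 3 met all 3 myoblast factors and lay at chr9:66359358-66362820, at chr17:31925020-31928437 and at chr5:115978968-115982353. In the order given, the MyoD centre lay 599, 731, 107.5, 481 and 738 bp from the MyoG centre. By centres within 150 bp, only the peak on chromosome 9 thus met MyoD. Each of the 5 belonged to a group of 4 to 22 neighbouring MyoG peaks.

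Of the 3 myoblast factors, MyoD was met by the largest share of MyoG peaks. By an overlap of at least 1 bp, 57.8% ± 1.68 of MyoG peaks met a MyoD peak of myoblasts (35564 peaks, 95% interval 57.4% to 58.2%), 42.6% ± 2.33 a RUNX1 peak (26211, 42.2% to 43.0%) and 32.9% ± 1.27 a c-Jun peak (20261, 32.6% to 33.3%). With centres within 150 bp the shares were 49.7% ± 1.88, 24.8% ± 0.816 and 18.2% ± 0.704. The MyoD share thus lost less under the stricter rule than the RUNX1 and c-Jun shares. MyoD peaks were also narrower, with a median of 818 bp against 945 bp for RUNX1 and 1124 bp for c-Jun. The middle of a wide peak can lie far from that of a peak it overlaps. The part of partner width in these losses, and in the distances that follow, was not tested. Where peaks met, the median distance between centres was 54.5 bp for MyoD, 111 bp for RUNX1 and 126.5 bp for c-Jun.

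The MyoD share depended strongly on how strong the MyoG peak was. It was 23.2% in class 1 (95% interval 22.2% to 24.3%), 49.7% in class 5 and 99.2% in class 10 (98.9% to 99.4%), and it was higher at each of the 9 steps. The difference between the strongest and the weakest class was 76.0 percentage points ± 2.77, with a range from 70.3 to 82.3 over the 19 chromosomes. With centres within 150 bp the share went from 19.7% to 82.1%, a difference of 62.3 ± 4.23 points. Only 51 of the 6149 peaks of class 10 had no MyoD peak. Of those 36 met RUNX1 (70.6%), beside 81.4% of all peaks of class 10.

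RUNX1 and c-Jun shares were also higher at stronger MyoG peaks, from a like starting point but with smaller slopes. RUNX1 was met by 24.5% of class 1 (23.4% to 25.6%) and 81.4% of class 10 (80.4% to 82.4%), a difference of 56.9 ± 3.79 points. For c-Jun the shares were 20.5% (19.5% to 21.5%) and 60.1% (58.9% to 61.3%), a difference of 39.6 ± 3.06 points. Both differences were above 0 on 19 of 19 chromosomes. In the weakest class MyoD and RUNX1 were met about equally often, with intervals that overlap. The c-Jun share there was a few points lower, with an interval below both. With centres within 150 bp, however, MyoD (19.7%) was ahead of RUNX1 (11.5%) and c-Jun (10.8%) already there. The order in class 1 thus depended on the rule, and the part of peak width in this was not tested. By centres the differences between the end classes were 41 ± 4.07 points for RUNX1 and 23.6 ± 4.14 for c-Jun.

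**Figure D2:**
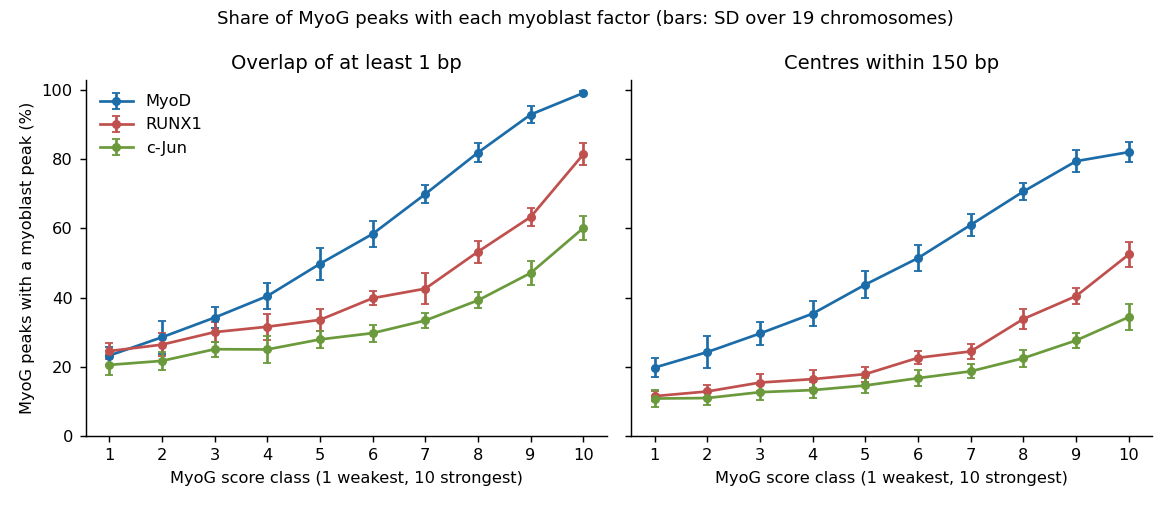
The share of MyoG peaks in percent that meet a MyoD, RUNX1 or c-Jun peak of myoblasts in each MyoG score class, by overlap of at least 1 bp (left) and by centres within 150 bp (right); points are shares of all peaks of a class and bars are SD over 19 chromosomes. The MyoD line climbs from 23.2% to 99.2% on the left and from 19.7% to 82.1% on the right, above RUNX1 and c-Jun from class 2 on by either rule.

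The slopes were also present at a like width. Among MyoG peaks of 550 to 750 bp, the MyoD share was 26.9% in class 1 (1775 peaks) and 98.8% in class 10 (923 peaks). The RUNX1 share in that band went from 25.5% to 72.0% and the c-Jun share from 20.2% to 51.2%. When each class was cut at its own median width, the MyoD share of class 10 was 99.3% in the narrower and 99.1% in the wider part, whereas the RUNX1 share was 74.8% and 88.1% and the c-Jun share 52.9% and 67.4%. Nearly all peaks of class 10 met MyoD, so a difference by width could hardly show there. In class 1 the MyoD share was 20.9% in the narrower and 25.5% in the wider part, and in class 6 it was 60.4% and 56.4%. The class 6 shares were 32.5% and 47.1% for RUNX1 and 26.4% and 33.0% for c-Jun. In class 1 they were 23.2% and 25.8% for RUNX1 and 19.9% and 21.1% for c-Jun. RUNX1 and c-Jun were met more often by the wider part in every score class, while the sign for MyoD differed between classes. Class 10 spans scores from 1172 to 3233, so its 2 parts may differ in score.

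Centres of MyoG and MyoD peaks lay about as close together at weak as at strong sites. Among overlapping pairs, their median distance was 53.5 bp in class 1, 51.5 bp in class 5 and 58.5 bp in class 10. The distance to an overlapping RUNX1 centre was 174 bp in class 1, 134 bp in class 5 and 92.5 bp in class 10. For c-Jun it was 138, 138.5 and 121 bp. RUNX1 centres therefore lay closer to the MyoG centre at strong MyoG peaks than at weak ones, in spite of the greater width of the strong peaks.

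The surroundings of the peaks give the level to set these values against. In class 1, 173 MyoD centres per 1000 MyoG peaks lay within 100 bp of the MyoG centre, and per 100 bp of distance between 3 and 5 kb there were 9.99, a ratio of 17.3. In class 10 the same counts were 697 and 15.0, a ratio of 46.6. RUNX1 had ratios of 9.45 in class 1 and 28.6 in class 10, and c-Jun 10.6 and 21.9. Even the weakest MyoG peaks were thus several times richer in myoblast peaks at their centre than a few kb away, and the flanks of strong peaks also held more MyoD centres than those of weak ones.

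Where MyoG and MyoD shared a site, strong went with strong. The MyoD peak met had a median score of 121.4 in MyoG class 1, 139.4 in class 5 and 965 in class 10. Across the 35564 shared peaks the Spearman correlation of the MyoG and MyoD scores was 0.51, and between 0.47 and 0.53 on single chromosomes. For RUNX1 it was 0.16 over 26211 peaks (0.09 to 0.20 on single chromosomes), and for c-Jun 0.11 over 20261 peaks (0.05 to 0.21). These are descriptions across sites of 1 list a factor. RUNX1 peaks met by class 1 had a median score of 211.7 and those met by class 10 one of 412. For c-Jun the medians were 212.2 and 345.

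Seen from the myoblast lists, and by overlap of at least 1 bp alone, a like gradient held, with different end points. Width followed score in these lists too, and its part in the gradient was not tested. The Spearman correlation of score and width was 0.71 for MyoD, 0.55 for RUNX1 and 0.85 for c-Jun. With each list divided into 10 classes by its own score, 51.1% ± 3.42 of the weakest MyoD class met MyoG, against 98% ± 1.13 of the strongest. RUNX1 peaks went from 37.6% ± 3.22 to 80.1% ± 2.68, and c-Jun peaks from 31.0% ± 4.37 to 68.2% ± 4.28. The strongest c-Jun peaks thus met MyoG less often than the strongest MyoD peaks, by a gap wider than either SD. A single myoblast peak could meet several MyoG peaks: 975 MyoD, 1726 RUNX1 and 1505 c-Jun peaks met 2 or more.

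Combinations of factors differed across the score classes. A MyoG peak of class 1 met a mean of 0.682 of the 3 factors and one of class 10 met 2.41. All 3 were met by 3.33% of class 1 and 53.8% of class 10. No myoblast peak was met by 53.3% of class 1, 31.5% of class 5 and 0.244% of class 10, where this came to 15 peaks. Over the whole list the most frequent states were no factor (16259 peaks, 26.4%), MyoD alone (12513, 20.3%), all 3 (10775, 17.5%) and MyoD with RUNX1 (7120, 11.6%). Less frequent were RUNX1 alone (5338), MyoD with c-Jun (5156), RUNX1 with c-Jun (2978) and c-Jun alone (1352).

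**Figure D3:**
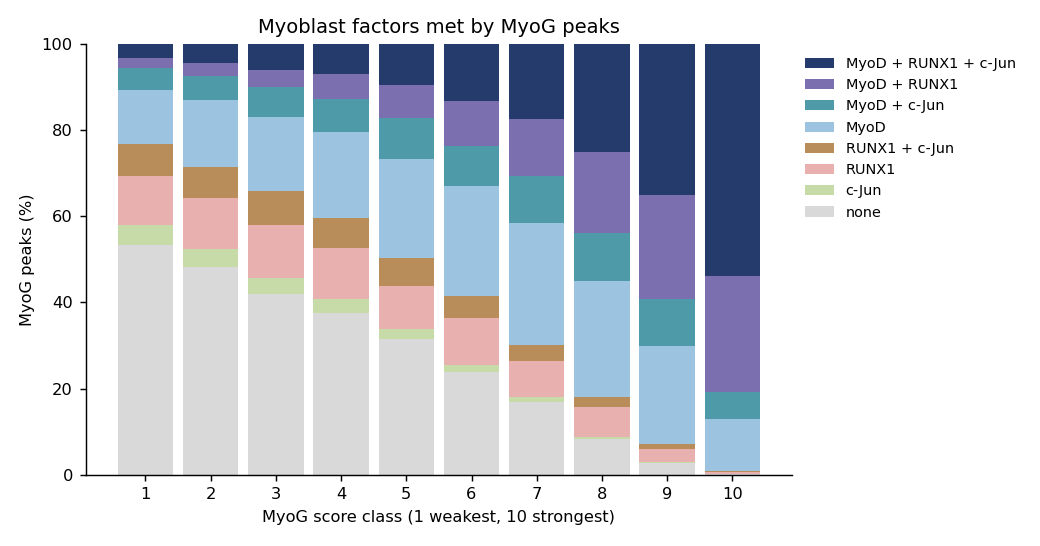
Composition of each MyoG score class by the myoblast factors its peaks meet, as a share of the peaks of the class in percent, for 8 states from none to all 3. The grey part without any myoblast peak shrinks from 53.3% to 0.244%, and the dark part with all 3 factors grows from 3.33% to 53.8%.

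The states differed in MyoG score. The median was 95.7 with no factor, 90.5 with c-Jun alone, 109.8 with RUNX1 and c-Jun and 124.7 with RUNX1 alone. It was 233 with MyoD alone, 245 with MyoD and c-Jun, 572 with MyoD and RUNX1 and 681 with all 3. MyoG peaks with MyoD and RUNX1 were therefore stronger than those with MyoD and c-Jun. Of peaks with MyoD and RUNX1, 23.3% belonged to class 10, against 7.37% with MyoD and c-Jun and 5.97% with MyoD alone.

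By overlap and at a like MyoG score, the MyoD share was nearly the same with and without RUNX1, when c-Jun was left out of account. Over all scores, 68.3% of MyoG peaks with RUNX1 and 50.1% of those without it met MyoD. Within score classes the gap nearly closed: 22.8% and 23.3% in class 1, 51.3% and 49.0% in class 5 and 93.6% and 91.7% in class 9. The mean difference over the 10 classes was 0.798 points ± 2.01, smaller than its SD, and above 0 on 12 of 19 chromosomes. Using the centre rule for both factors, it was 2.69 ± 2.17 points and above 0 on 17 of 19. There the gap was between -1.38 and 1.88 points in classes 1 to 6 and reached 4.83 points in class 8, 5.19 in class 9 and 8.84 in class 10 (86.3% against 77.4%). Among peaks that overlapped c-Jun, MyoD was met less often with RUNX1 than without it in classes 1 and 5. In class 1, 205 such peaks with RUNX1 met MyoD and 454 did not, against 319 and 286 without RUNX1. In class 5 these counts were 589 and 391, against 587 and 147. Among class 5 peaks without c-Jun they were 469 and 613, against 1414 and 1939, which are like shares.

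The presence of c-Jun told much more. At a like MyoG score, 72.0% of peaks with c-Jun and 52.2% without it met MyoD, as means over the 10 classes, a difference of 19.9 points ± 1.72 that was above 0 on 19 of 19 chromosomes and in 10 of 10 classes. In class 1 the shares were 41.5% (of 1264 peaks with c-Jun) and 18.5% (of 4899 without), and in class 9 they were 97.4% and 88.9%. RUNX1 and c-Jun also went together. RUNX1 was met by 63.8% of MyoG peaks with c-Jun and 33.0% without, again as means over the classes, a difference of 30.8 ± 2.01 points on 19 of 19 chromosomes.

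The c-Jun share was higher in the strongest classes where MyoD was met, and lay within a few points where it was not. Where MyoD was met, c-Jun was present at between 35.1% and 39.0% of classes 1 to 6, then at 40.7%, 44.3%, 49.4% and 60.5% of classes 7 to 10. Where MyoD was not met, the c-Jun share stayed between 13.7% and 17.9% in all 10 classes, with 13.7% of just 51 peaks in class 10. For RUNX1 the share was higher at stronger peaks in both sets. Without MyoD its share went from 24.6% in class 1 to 57.0% of 435 peaks in class 9, beside 24.1% and 63.8% with MyoD.

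**Figure D4:**
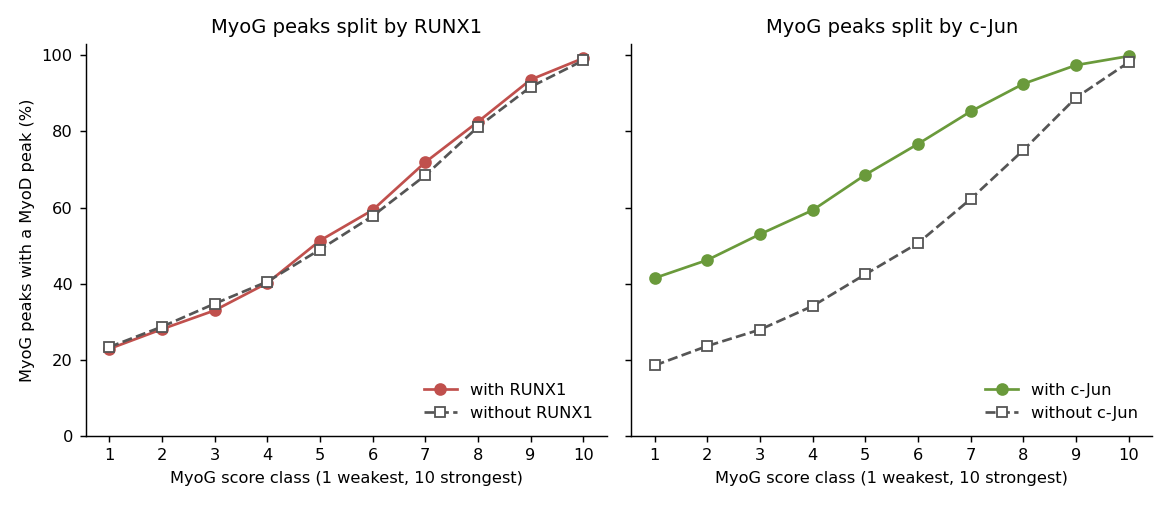
The share of MyoG peaks in percent that meet a MyoD peak, by MyoG score class, for peaks with and without RUNX1 (left) and with and without c-Jun (right), by overlap of at least 1 bp. The lines on the left run together, at 22.8% and 23.3% in class 1, and those on the right lie apart, at 41.5% and 18.5% in class 1, and close towards class 10.

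The 772 peaks at or above the ceiling all met MyoD (100%, 95% interval from 99.5%). The share was 57.8% in the whole list and already 99.2% in class 10, which holds these peaks. Of the 772 peaks, 738 met RUNX1 (95.6%, 93.9% to 96.8%) and 614 met c-Jun (79.5%, 76.5% to 82.2%). In class 10 as a whole these shares were 81.4% and 60.1%, and 53.8% met all 3 factors. All 3 factors were met by 596 of the ceiling peaks (77.2%), MyoD and RUNX1 by 142, MyoD and c-Jun by 18 and MyoD alone by 16. The MyoD peak met was itself at or above the ceiling in 291 cases, and its score had a median of 2489 and a minimum of 136.0. The RUNX1 peaks met had a median score of 857, and the c-Jun peaks one of 440. The MyoD peaks at these MyoG sites thus ranged from below the median of the MyoD list to the ceiling.

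MyoG peaks without a myoblast peak were mostly weak. Of these 16259 peaks, 3282 were in class 1, 174 in class 9 and 15 in class 10, and 33 scored over 1000. The 5 with the highest scores lay at chr7:139912008-139913047, at chr11:6304555-6305976, at chr13:20279987-20280708, at chr9:107358730-107359619 and at chr4:155231588-155232625. Their scores were 2237, 1742, 1694, 1664 and 1651. Each had another MyoG peak at a distance between 1083 and 9105 bp, and the first was part of a group of 21 MyoG peaks.

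MyoG peaks lay close to each other. The median distance between neighbouring centres on a chromosome was 10445 bp, with quartiles of 3502 and 29292 bp, while the mean distance was 39089 bp. Distances under 2 kb made up 14.9% and those over 100 kb 6.85%. No peaks overlapped, since the smallest edge-to-edge gap was 1 bp. The longer list makes shorter distances, so the 40000 strongest peaks of each list were also compared. This leaves out more of the weak peaks of MyoG than of the shorter lists, so the sets are equal in number but not in strength. The median distance was then 15312 bp for MyoG, 17465 bp for RUNX1, 18511 bp for MyoD and 20562 bp for c-Jun, and distances under 2 kb made up 10.7%, 7.10%, 8.04% and 4.98%. MyoG peaks were also the narrowest of the 4 lists, and the part of width in this order was not tested.

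When centres at most 12500 bp apart were linked, 56.2% ± 5.02 of MyoG peaks fell into 6663 clusters of 3 or more, and 25.6% (15730 peaks) stood alone. The share in clusters ranged from 48.0% to 65.2% over chromosomes. Clusters of 3 or more spanned a median of 16.0 kb, 588 clusters held 10 or more peaks and 59 held 20 or more. Of the 6767 peaks in clusters of 11 or more, 16.0% were of class 10 and 8.31% of class 1, against 5.80% and 11.4% of lone peaks. Strong peaks were more often clustered than weak ones, at 71.8% in class 10 and 51.5% in class 1. The scores of nearest neighbours were nearly unrelated, with Spearman correlations between -0.02 and 0.06 in each of 8 ranges of distance.

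The 5 clusters with most peaks were taken by a fixed rule. For comparison, 57.8% of all MyoG peaks met MyoD, 42.6% RUNX1 and 32.9% c-Jun, and 26.4% met none. In clusters of 11 or more these shares were 57.8%, 52.4%, 35.5% and 24.6%. The largest held 35 MyoG peaks over 153.5 kb at chr10:79486329-79639864, of which 19 met MyoD, 23 RUNX1 and 16 c-Jun, and 8 met none. At chr7:117874920-118012700, 33 peaks included 17 with MyoD, 10 with RUNX1 and 13 with c-Jun. Another 33 lay at chr11:117077866-117209588, with 22 at MyoD and 24 at RUNX1 sites. The last pair held 31 peaks each, at chr11:5072710-5197692 and at chr4:140084578-140222034. Scores within these clusters reached from under 60 to the ceiling or above in 4 of 5, and to 2273 on chromosome 4. A peak came every 3.99 to 4.43 kb, and each cluster held between 4 and 8 peaks of class 10.

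Clustered peaks met MyoD about as often as lone peaks over all scores, and less often at a like score. Clustered peaks (3 or more) met MyoD in 58.3% and lone peaks in 56.9%, a difference of 1.37 points ± 2.83 that had no single sign over chromosomes (13 above 0 and 6 below). Clustered peaks were stronger, with a median score of 254 in clusters of 11 or more against 156.4 for lone peaks. At a like score, clustered peaks met MyoD less often: the mean over the 10 classes was 55.7% against 60.9%, a difference of -5.19 ± 2.39 points, below 0 in 10 of 10 classes and on 19 of 19 chromosomes. By the centre rule the difference was -9.14 ± 2.64. In clusters of 11 or more the mean share over classes was 52.3%.

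For RUNX1 and c-Jun the sign depended on the rule. By overlap, clustered peaks met RUNX1 more often than lone peaks at a like score, by 6.69 ± 1.97 points and on 19 of 19 chromosomes, and c-Jun by 2.45 ± 2.17 points on 17 of 19. Centres within 150 bp gave differences of -2.34 ± 2.18 (below 0 on 15 of 19 chromosomes) and -2.93 ± 1.40 (19 of 19). MyoD, RUNX1 and c-Jun peaks were all wider than MyoG peaks at the median, and 1 such peak could meet several MyoG peaks of a cluster. The part of this in the change of sign was not tested.

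**Figure D5:**
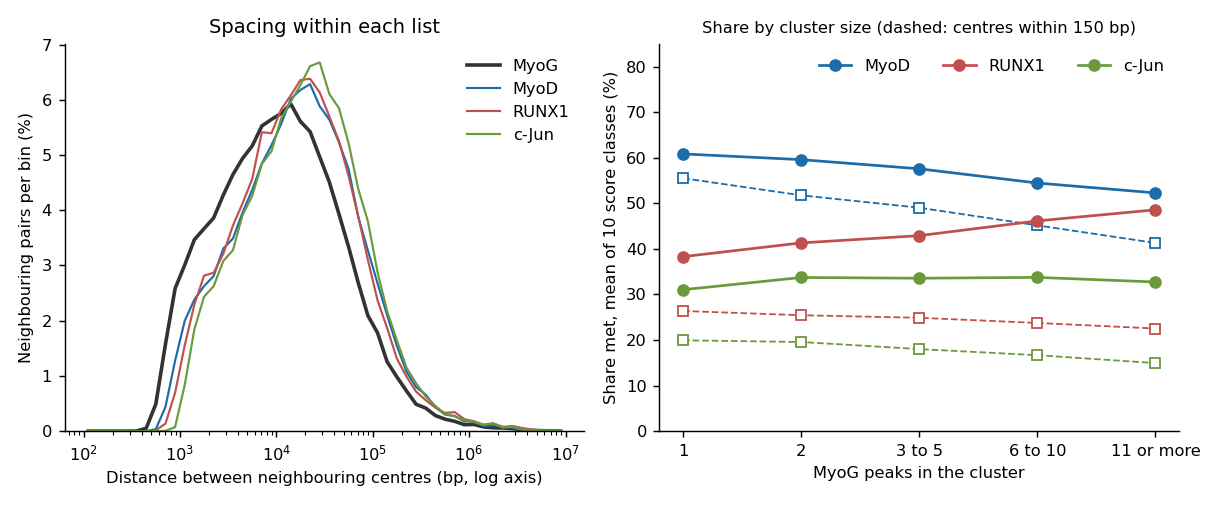
Left, the distance between neighbouring peak centres in bp on a log axis for each of the 4 lists, as a share of neighbouring pairs in percent per bin; right, the share of MyoG peaks that meet each factor in percent by the number of peaks in their cluster, as the mean of 10 score classes, with solid lines for overlap of at least 1 bp and dashed lines for centres within 150 bp. The MyoG curve lies to the left of the others, and the MyoD share falls with cluster size by either rule (60.9% to 52.3% by overlap) while the RUNX1 share climbs by overlap (38.3% to 48.6%) and falls by centres (26.4% to 22.5%).

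The distance to the nearest MyoG neighbour, in 8 ranges from under 1 kb to over 100 kb, gave a finer scale. By overlap the MyoD share lay between 56.5% and 59.7% in all of them. Remote peaks were weaker, and as a mean over the 10 score classes the MyoD share was 60.4% under 1 kb, 54.8% at 1 to 2 kb, 58.6% at 10 to 20 kb and 65.3% beyond 100 kb. By centres within 150 bp, over all scores, it was 34.7% under 1 kb and between 50.3% and 53.8% in the other ranges. The RUNX1 share was 52.6% of 5608 peaks with a neighbour under 1 kb, 38.2% at 10 to 20 kb and 23.8% of 1225 peaks with none within 100 kb. Between peaks with a neighbour under 2 kb and those with none within 50 kb it differed by 22.7 ± 4.13 points, above 0 on 19 of 19 chromosomes. Under the centre rule the difference was 3.17 ± 3.53 points, and the RUNX1 share was 17.7% under 1 kb, between 24.5% and 26.6% from 1 to 50 kb, 21.9% at 50 to 100 kb and 17.4% beyond 100 kb. Over all scores, the RUNX1 share of remote MyoG peaks was thus lower than that at 1 to 50 kb by either rule. The high share of close neighbours was seen by overlap alone. As means over the 10 score classes, the overlap share was 29.1% beyond 100 kb and between 39.7% and 46.8% from 1 to 50 kb. No such mean is given by centres, and the part of the lower scores of remote peaks was not tested there. The median score of peaks with no neighbour within 100 kb was 126.3.

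Even so, some remote MyoG peaks were among the strongest. Of the 1225 peaks with no MyoG centre within 100 kb, 2 were at or above the ceiling, beside 772 (1.26%) of all 61491 MyoG peaks. Class 10, which is 1 of 10 classes of nearly equal number, held 3.18% of the remote peaks. Strong peaks were thus rarer among remote peaks than in the whole list. The 2 ceiling peaks lay at chr8:50716611-50717317, with a score of 3227, and at chr1:20048024-20049037, at 3100, the latter 461818 bp from the nearest MyoG centre. The next 3 were at chr7:63423890-63424642, at chr6:100996569-100997324 and at chr10:16509266-16510068, with scores of 2843, 2775 and 2608. All 5 met MyoD, with scores from 1450 to 3100 and centres 5 to 85.5 bp apart, 4 met RUNX1 and 3 met c-Jun. They belong to class 10, where 99.2% of peaks met MyoD, 81.4% RUNX1 and 60.1% c-Jun, so these counts set them apart in no way.

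Among weak MyoG peaks the MyoD share varied with the distance to the nearest strong one. Among peaks of classes 1 to 3, the MyoD share was 42.7% for 164 peaks within 1 kb of a class 10 peak (95% interval 35.4% to 50.3%), 20.1% at 2 to 5 kb (17.7% to 22.9%) and 32.5% beyond 100 kb (31.5% to 33.6%). Within 1 kb, 55 of the 70 weak peaks with MyoD met the same MyoD peak as their strong neighbour, and the median centre distance of the 70 was 568 bp. By centres the share there was 9.76%. From 2 kb outward the MyoD share was thus lowest nearest to strong peaks, by both rules: with centres within 150 bp it was 16.4% at 2 to 5 kb and 28.7% beyond 100 kb. The RUNX1 share was 29.3% at 2 to 5 kb and 24.9% beyond 100 kb, and 12.47% and 13.5% by centres.

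Chromosomes differed in density more than in sharing. There were between 17.7 MyoG peaks per Mb on chromosome 14 and 36.4 on chromosome 11, and the median score ranged from 177.9 to 203.6. The MyoD share ranged from 55.2% to 60.4%, the RUNX1 share from 38.8% to 45.8% and the c-Jun share from 31.4% to 35.4%. Across the 19 chromosomes, which share the same libraries, the Pearson correlation of the share with MyoG density was -0.60 for MyoD and 0.76 for RUNX1, and Spearman's rho was -0.66 and 0.67. For c-Jun they were -0.29 and -0.40. As means over score classes the Pearson values were -0.69 for MyoD, 0.73 for RUNX1 and -0.47 for c-Jun. By overlap, denser chromosomes thus had a lower MyoD and a higher RUNX1 share, as a description with no test. By centres within 150 bp the RUNX1 share ranged only from 23.2% to 25.8% and the MyoD share from 46.7% to 52.4%. Their correlations with density are not given. The peak densities of RUNX1, MyoD and c-Jun followed that of MyoG, with Pearson correlations of 0.99, 0.97 and 0.92.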

How the data were processed

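Per the labels' protocols, chromatin fragments were near 300 bp and the amplified libraries near 250 bp. Bowtie, CASAVA 1.7.0 and 1.8.2 and the build mm9 are named in the submitters' processing notes. The authors deposited 1 peak list per factor, with a name that begins with MACS and a score in column 5. The way replicates were joined, the control that entered, the score's scale and the settings and version of MACS were not given in the sources used here. Named by an abbreviation, the MyoG list was assigned by elimination, since the other 3 names match RUNX1, MyoD and c-Jun.

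Starts were read as 0-based and printed 1-based. Peaks were matched by at least 1 bp of overlap. The 10 score classes were cut at equal numbers of peaks, with equal scores kept together. Means over 10 classes weight each class equally. Overlap counts equalled those of bedtools 2.31.1 (difference 0), and the matching and clustering code was tested on simulated data. Chromosome lengths came from GenomeInfoDb 1.38.1. R 4.3.3 and Python 3.11.15 were used, the latter with matplotlib 3.10.9, scipy 1.17.1, pandas 2.3.3 and numpy 2.4.6. Named regions were the 5 clusters with most peaks and the 5 peaks each that were widest at the ceiling, highest without a myoblast peak and highest with no MyoG centre within 100 kb. Members, classes and rules were chosen with earlier results of these data known. The IgG libraries were not analysed here. Alternatives were other overlap rules, score cut-offs, link distances, class numbers, chromosome X and a fixed width.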

Additional observations from a re-analysis of the deposited data

Results flagged for a closer look

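Chromosome X lay outside the comparisons of chromosomes 1 to 19, and its MyoG peaks are given here as a signal beyond them; they enter only the total of the list and the alternative that adds X. It held 965 MyoG peaks, or 5.79 per Mb against 24.9 on chromosomes 1 to 19. Their median score was 146.4, the median width was 607 bp, and 2 were at or above the ceiling. MyoD was met by 52.2% (95% Wilson interval 49.1% to 55.4%), RUNX1 by 27.7% (24.9% to 30.6%) and c-Jun by 22.0% (19.5% to 24.7%). As a mean over the 10 score classes the MyoD share on X was 58.2%, beside 57.8% on the other chromosomes. Copy number of X was not measured and its part was not tested.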

How the results depend on the processing

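Of 83 alternatives, 29 were chosen after seeing the data (windows of 200 bp, MyoG peaks of 550 to 750 bp alone, and every alternative of the comparisons within score classes and by neighbour distance). A value counted as kept within the 95% Wilson interval of a share, which is narrow for a list of this size, or within 1 SD over chromosomes of a difference: 26 kept, 52 moved and 5 reversed. In the order MyoD, RUNX1 and c-Jun, the overall shares in percent were 57.1, 41.2 and 30.3 with 50% of the shorter peak overlapped, 49.7, 24.8 and 18.2 with centres within 150 bp, 52.2, 28.0 and 20.8 with windows of 200 bp, 69.8, 49.1 and 37.3 at a MyoG score of at least 100, 45.2, 33.4 and 25.8 at a partner score of at least 100, 57.3, 42.0 and 32.4 without peaks at or above 3100, 57.4, 42.2 and 32.5 without the widest 1% and 55.8, 37.5 and 29.2 at widths of 550 to 750 bp. The strongest minus the weakest class, in points, stayed above 0 for all 3 under each alternative run: 62.3, 41 and 23.6 with centres within 150 bp, 66.6, 45.7 and 27.5 with windows, 70.2, 46.9 and 32.5 in 5 classes and 67.9, 34.2 and 24.9 in the width band. Where peaks were left out, score classes, clusters and neighbours were formed anew from those kept, so the width band's classes differ from the whole-list classes used for that band in the report. With partner scores of at least 100 the MyoD difference was 83.7 and the c-Jun one 34.8, and without ceiling peaks the c-Jun one was 36.4. The share in clusters of 3 or more was 27.8% with links of 5 kb, 70.4% with 20 kb, 55.7% with X and 46.5% at scores of at least 100. The small MyoD difference of clustered and lone peaks over all scores reversed to -3.56 with centres within 150 bp and -3.17 with windows. Averaged over score classes, centres within 150 bp moved it to -9.14 and reversed those of RUNX1 to -2.34 and of c-Jun to -2.93. The neighbour difference was 3.17 for RUNX1 and reversed to -1.6 for c-Jun by centres, and 11 and 5.47 in the width band. MyoD with against without c-Jun was 22.6 by centres and 22.9 in the width band, and RUNX1 with against without c-Jun 20.9 by centres. The width ratio was 1.6 at scores of at least 100 and 1.74 without ceiling peaks. The cause of each reversal was not tested. No paired analysis was possible because a peak has 1 score and no value per library, and for the same reason no replicate could be left out. Depth is unknown and limits what a missing peak can show.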
